A study of Mus musculus with 12 samples.

Results

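The families described here are 72 of the 1217 repeat families that the study measured in mouse embryonic stem cells. They are all families whose names start with RLTR, apart from those starting RLTR1B, RLTR4, RLTR6, RLTR10 or RLTRETN. That leaves out 31 RLTR families, and 16 of these are numbered 40 to 49, because a name such as RLTR41 also starts with RLTR4. Of the 72 families, 69 are long terminal repeats (LTRs) and 3 are internal parts of proviruses, named RLTR14-int, RLTR18-int and RLTR19-int. Grouped by the number in the name, 8 are RLTR9, 15 RLTR13, 1 RLTR17, 8 RLTR20, 3 RLTR1, 3 RLTR11, 3 RLTR18, 5 RLTR19 and 4 RLTR31, and 22 carry numbers with fewer members. RLTR3_Mm had 0 to 2.7 normalised reads per library and was not tested. The other 71 had at least 38.7 normalised reads on average in every group, so none entered the tests through 1 group alone.

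RLTR is the name given to the rodent LTRs of endogenous retroviruses, the remains of retroviruses that entered the germ line. An LTR carries the promoter and enhancer of the provirus, and most copies are solitary LTRs left after recombination has removed the internal part that encodes the viral proteins. In embryonic stem cells many of these elements are held silent by KRAB zinc finger proteins, which recruit TRIM28 and the histone methyltransferase SETDB1 to place trimethylation on histone H3 lysine 9. RLTR9, RLTR13D6 and RLTR17 copies are also known as binding sites of pluripotency factors such as OCT4, SOX2, NANOG and ESRRB in mouse embryonic stem cells, and RLTR13D5 copies as enhancers in mouse trophoblast stem cells.

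RNA was sequenced from E14 cells, a mouse embryonic stem cell line of 129/Ola background, kept without feeder cells on gelatin. The 4 groups of 3 libraries were shSetdb1 cells in 2i, shScr cells in 2i, shSetdb1 cells in serum and shScr cells in serum. All carried a lentiviral pLKO.1 vector, directed against Setdb1 (shSetdb1) or scrambled (shScr), and were put in 1 µg/ml puromycin 48 hours after infection, with harvest once 3 days under the drug had passed. Serum medium held fetal bovine serum with LIF, and 2i medium combined PD0325901, a MEK inhibitor, and CHIR99021, a GSK3 inhibitor, with LIF and the supplements N2 and B27. The submitters call the serum cells primed. No group had Setdb1 restored, and none is labelled with another shRNA against it, so effects of SETDB1 loss and other effects of the shRNA cannot be told apart. The labels do not state that the 3 libraries of a group are separate cultures, and the p-values cover the variation among these libraries alone, which may be technical.

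Libraries held 4821181 to 15509401 reads on genes and 4407665 to 8962913 on repeats, of which 49720 to 112009 fell on the 72 families. The lowest counts on genes and on the 72 families were both those of 2i shSetdb1 replicate 3. Setdb1 had 837, 610 and 340 normalised reads in shSetdb1 cells in 2i, against 3607, 2724 and 2253 in shScr cells in 2i. It had 418, 379 and 409 in shSetdb1 cells in serum, against 2959, 2237 and 1587 in shScr cells in serum. These are log2 changes of -2.24 in 2i (SE 0.33, limma adjusted p = 0.00173) and -2.33 in serum (SE 0.33, limma adjusted p = 0.00219), so a part of the transcript remained. Markers of pluripotent stem cells summed to between 31973 and 45715 normalised reads in every library. In serum the sums were 32298 to 37714 in shSetdb1 cells and 38851 to 45715 in shScr cells, without overlap. In 2i they overlapped, at 31973 to 41466 and 36042 to 41643. None of these 8 markers passed in either knockdown comparison. At an unadjusted limma p under 0.05, 3 were lower in serum, where 1.42% of all tested genes were, and 1 in 2i, where 1.95% were. Markers of primitive endoderm summed to at most 211 and those of trophoblast to at most 124. Fibroblast markers summed to 124 to 768 in shSetdb1 cells in 2i, against 5.78 to 31.7 in shScr cells in 2i, and Lum alone held 736, 102 and 542 of the reads in the shSetdb1 cells. Of the 2 that could be tested, Lum was higher there and Thy1 did not pass (log2 change -0.15). The others had too few reads to be tested. Postn averaged 6.51 normalised reads in the shSetdb1 cells and 0.230 in the shScr cells, Col1a1 5.35 and 0.920 and Col1a2 1.28 and 0.230. Col3a1 averaged 3.84 and Dcn 0.512 in the shSetdb1 cells, with reads in replicate 1 only, and both were at 0 in the shScr cells. Structural RNA repeats, such as small nuclear RNAs, took 19.9, 55.6 and 69.5% of repeat reads in shSetdb1 cells in 2i and 32.1, 38.9 and 64.6% in shScr cells in 2i. They took 16.1, 15.6 and 42.6% in shSetdb1 cells in serum and 24.2, 29.9 and 48.3% in shScr cells in serum, so composition varied within every group. The library numbered 3 had the highest share in each group, and the labels do not say what libraries of the same number have in common. The part of the pluripotency and fibroblast markers and of this composition in the results below was not tested. RNA came from bulk cultures, in which fewer cells expressing a family and less RNA per cell cannot be told apart.

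Levels differed widely among the families. They are read counts of all copies of a family and depend on how many copies there are and how long they are, which the files do not give. The family means in shScr cells spanned 38.7 to 7255 normalised reads in 2i and 96.9 to 6644 in serum, with medians of 316 and 463. RLTR25A led in both media, at 6028, 7236 and 8502 normalised reads in shScr cells in 2i and 4467, 6239 and 9227 in shScr cells in serum. The 5 families with the highest means held 43.8% of the members' reads in shScr cells in 2i and 35.4% in shScr cells in serum.

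Knockdown of Setdb1 raised a part of these families and lowered none at the threshold used, a limma p adjusted over all 1097 tested families under 0.05. In 2i, 25 of the 71 families rose, while 10.4% of all tested families rose in that comparison and 0.0912% fell. In serum, 6 of the 71 rose, against 3.28% of all tested families that rose and 0.0912% that fell. With voom on the recovered reads no member fell either. On the deposited values none had an unadjusted limma p under 0.05 in the lower direction. In the higher direction 40 had one in 2i and 18 in serum, beside 21.6% of all tested families in 2i and 7.93% in serum. The count of 25 in 2i depended on the scaling of libraries. It was 14 with voom when structural RNA was left out of library sizes and 54 with the gene table's size factors. The median log2 change over the 71 was 0.60 in 2i and 0.27 in serum, beside 0.24 in 2i and -0.03 in serum over all tested families. Each of the 6 families called in serum was also called in 2i, which is 100% of the serum calls and 24% of the 2i calls. All 3 shSetdb1 libraries lay above all 3 shScr libraries for 41 of the 71 families in 2i, where 22.3% of all tested families did so, and for 25 in serum, where 9.75% did so. No family had all 3 shSetdb1 libraries below the shScr libraries in either medium. The serum count was 9 with replicate number as a block, which added RLTR16, RLTR31B_Mm and RLTR9A, and 10 with the block set within each medium, which also added RLTR9F. With voom and trimmed mean of M-values (TMM) scaling it was 9 as well, adding RLTR13D3, RLTR31B_Mm and RLTR9A. A fit of only the 2 serum groups also gave 9, adding RLTR16, RLTR31B_Mm and RLTR9F.

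**Figure D1:**
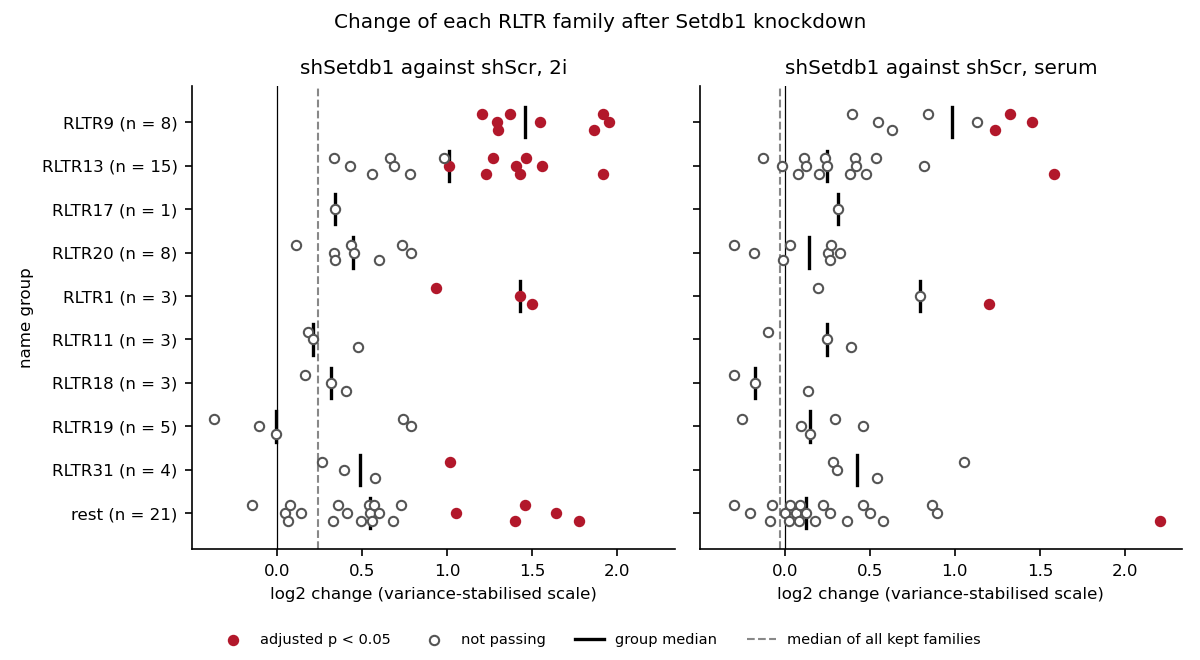
Each point is 1 family, placed by its log2 change (x axis, variance-stabilised scale) in its name group (y axis), for shSetdb1 against shScr cells in 2i (left) and in serum (right). Red points passed the limma test, black bars are group medians and the dashed line is the median of all 1097 tested families. All 8 RLTR9 families passed in 2i and 3 in serum, while no RLTR20 family passed in either.

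All 8 RLTR9 families rose in 2i, by 1.20 to 1.95 on the log2 scale with a median of 1.46. When libraries were scaled without structural RNA, 4 of the 8 passed there, RLTR9A, RLTR9B2, RLTR9C and RLTR9D. In serum 3 of the 8, RLTR9C, RLTR9D and RLTR9E, rose, and the median was 0.98. RLTR9E had the most reads of the group. It had 10315, 8517 and 7429 normalised reads in shSetdb1 cells in 2i, against 3718, 3487 and 2891 in shScr cells in 2i. It had 7978, 9196 and 7731 in shSetdb1 cells in serum, against 3680, 4642 and 2093 in shScr cells in serum. Every shSetdb1 library was therefore above every shScr library in both media, by 2.60-fold in 2i (log2 change 1.37, SE 0.27, limma adjusted p = 0.00258). The serum rise was 2.39-fold (1.32, SE 0.27, limma adjusted p = 0.00719). The serum call was lost without serum shScr replicate 3, the lowest control library (limma adjusted p = 0.0552), and the 2i call when libraries were scaled without structural RNA (limma adjusted p = 0.0616).

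RLTR9D had 2802, 2279 and 2037 normalised reads in shSetdb1 cells in 2i, against 525, 614 and 697 in shScr cells in 2i, a 3.88-fold rise (log2 change 1.91, SE 0.24, limma adjusted p = 8.19e-05). It had 2645, 2885 and 1688 in shSetdb1 cells in serum, against 1093, 1062 and 820 in shScr cells in serum, a 2.43-fold rise (1.23, SE 0.24, limma adjusted p = 0.00534). The groups did not overlap in either medium. RLTR9C had fewer reads and rose by similar factors. It had 1009, 641 and 678 normalised reads in shSetdb1 cells in 2i, against 171, 209 and 200 in shScr cells in 2i (4.02-fold, log2 change 1.86, SE 0.29, limma adjusted p = 0.000327). In serum it had 798, 913 and 501 in shSetdb1 cells, against 317, 260 and 183 in shScr cells (2.91-fold, 1.45, SE 0.29, limma adjusted p = 0.00527).

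RLTR9B2 and RLTR9A rose in 2i and did not pass in serum. RLTR9B2 had 287, 293 and 323 normalised reads in shSetdb1 cells in 2i, against 51.7, 72.4 and 63.6 in shScr cells in 2i, the largest log2 change of any member in 2i at 1.95 (4.81-fold, SE 0.27, limma adjusted p = 0.000175). In serum the groups met, with 184, 322 and 267 in shSetdb1 cells against 130, 184 and 154 in shScr cells (log2 change 0.63, SE 0.27, limma adjusted p = 0.438). RLTR9A had 1427, 1498 and 1194 in shSetdb1 cells in 2i, against 505, 433 and 426 in shScr cells in 2i (3.02-fold, 1.54, SE 0.25, limma adjusted p = 0.000483). It had 2207, 2315 and 1340 in shSetdb1 cells in serum, against 1123, 1281 and 803 in shScr cells in serum, without overlap but short of the threshold (0.84, SE 0.25, limma adjusted p = 0.103). Of the smaller families, RLTR9A2, RLTR9B and RLTR9F rose by 2.64-fold, 3.08-fold and 3.18-fold in 2i, and none of these calls held under every scaling between libraries. RLTR9A2 lost its call without 2i shSetdb1 replicate 1 or 3 or 2i shScr replicate 1 or 3 (limma adjusted p 0.0563 to 0.0977). RLTR9B lost it without 2i shSetdb1 replicate 3 or 2i shScr replicate 1 or 2 (limma adjusted p 0.0656 to 0.101). RLTR9F lost it without 2i shSetdb1 replicate 1 or any 2i shScr replicate (limma adjusted p 0.0602 to 0.128). In serum RLTR9F reached a log2 change of 1.13 (limma adjusted p = 0.138), and RLTR9B and RLTR9A2 reached 0.55 and 0.40.

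**Figure D2:**
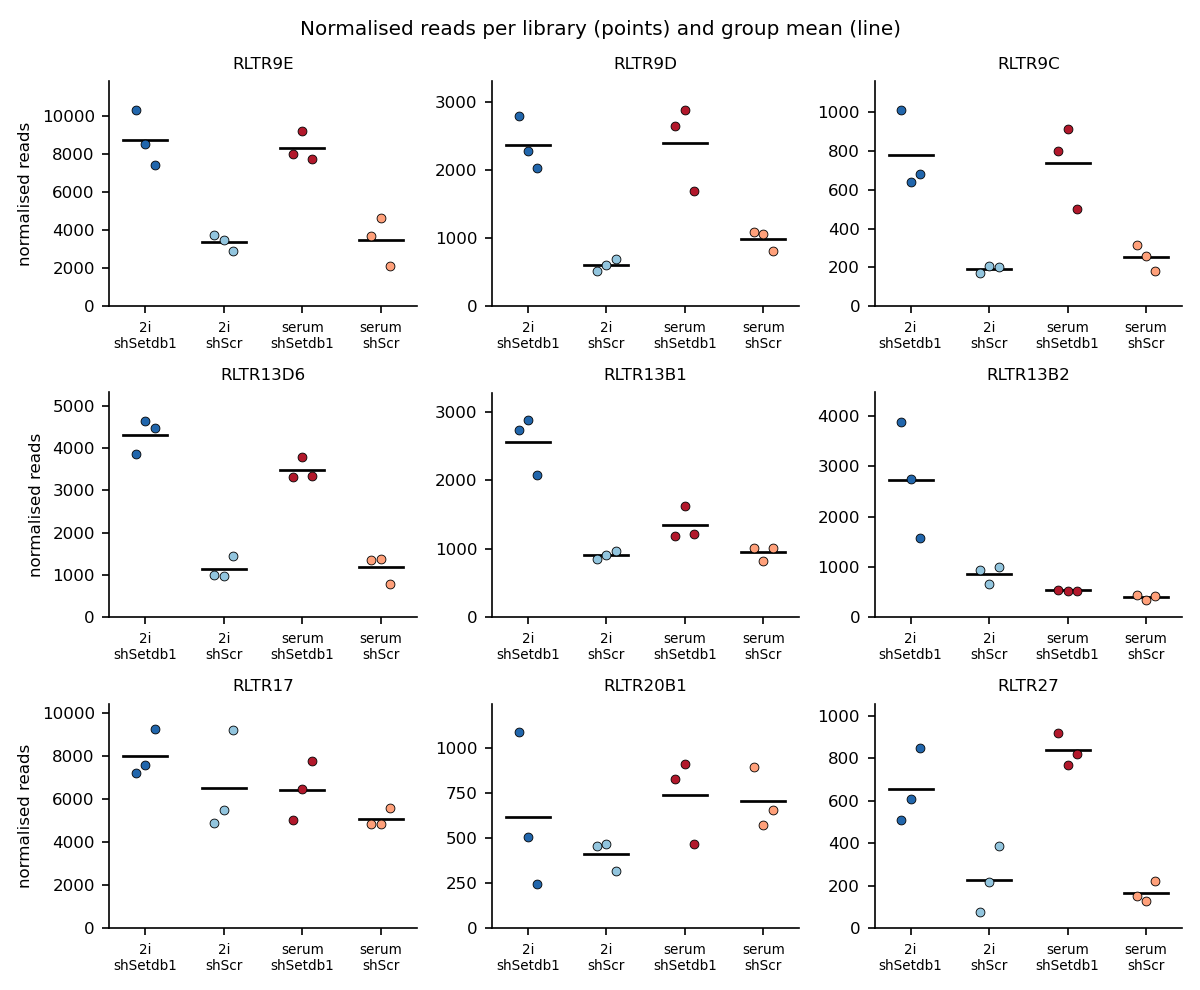
Normalised reads (y axis, linear from 0) of 9 families in each of the 12 libraries, with the group mean as a line and the groups on the x axis. RLTR9C, RLTR9D, RLTR9E, RLTR13D6 and RLTR27 are higher in all shSetdb1 libraries than in all shScr libraries of the same medium, RLTR13B1 and RLTR13B2 are highest in shSetdb1 cells in 2i, and RLTR17 and RLTR20B1 overlap between groups.

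RLTR13 was split. In 2i, 8 of its 15 families rose and the median log2 change was 1.01, and in serum 1 rose, with a median of 0.25. The letter that follows the number marks subgroups, and none of the 3 families named RLTR13A passed in 2i (median 0.43), compared with 2 of 4 named RLTR13B (median 1.22), both named RLTR13C (median 1.33) and 4 of 6 named RLTR13D (median 1.14). This contrast depended on the scaling: with the gene table's size factors all 15 RLTR13 families passed in 2i, and without structural RNA the RLTR13A median was -0.060 and 0 of 3, 2 of 4, 1 of 2 and 3 of 6 passed in the order of the letters. RLTR13D3 passed in both media with TMM or with median centring, and RLTR13C2 with no filter. With the deposited scaling and the filter on low values, RLTR13D6, the most abundant RLTR13 family, was the one that rose in both media. It had 3848, 4634 and 4466 normalised reads in shSetdb1 cells in 2i, against 1001, 976 and 1456 in shScr cells in 2i (3.77-fold, log2 change 1.91, SE 0.25, limma adjusted p = 8.19e-05). It had 3306, 3789 and 3343 in shSetdb1 cells in serum, against 1350, 1385 and 797 in shScr cells in serum (2.96-fold, 1.58, SE 0.25, limma adjusted p = 0.000769). The groups did not overlap in either medium.

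RLTR13B1, RLTR13B2 and RLTR13C1 rose in 2i and did not pass in serum. RLTR13B1 had 2731, 2879 and 2072 normalised reads in shSetdb1 cells in 2i, against 844, 910 and 961 in shScr cells in 2i (2.83-fold, log2 change 1.46, SE 0.22, limma adjusted p = 0.000297). It had 1180, 1631 and 1218 in shSetdb1 cells in serum, against 1017, 821 and 1014 in shScr cells in serum (1.41-fold, 0.48, SE 0.22, limma adjusted p = 0.48). The serum libraries did not overlap although the change was small. RLTR13B2 had 3880, 2743 and 1568 normalised reads in shSetdb1 cells in 2i, against 931, 667 and 1001 in shScr cells in 2i (3.15-fold, log2 change 1.56, SE 0.29, limma adjusted p = 0.00138). It had 549, 527 and 523 in shSetdb1 cells in serum, against 446, 342 and 432 in shScr cells in serum (1.31-fold, 0.38, SE 0.29, limma adjusted p = 0.924). The 2i libraries of RLTR13B2 thus spread widely while those in serum lay close together. RLTR13C1 had 843, 1107 and 994 in shSetdb1 cells in 2i, against 229, 361 and 509 in shScr cells in 2i (2.68-fold, 1.43, SE 0.27, limma adjusted p = 0.00173), a call lost when libraries were scaled without structural RNA, and its serum log2 change was 0.42 (SE 0.27, limma adjusted p = 0.916).

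RLTR13D1, RLTR13C2, RLTR13D3 and RLTR13D4 were the other 4 RLTR13 families that rose in 2i, by 2.72-fold, 2.37-fold, 2.56-fold and 2.09-fold. RLTR13D3 came closest of these to the threshold in serum, where its log2 change reached 0.82 (SE 0.28, limma adjusted p = 0.2), and its 2i call was lost without 2i shScr replicate 1 (limma adjusted p = 0.0524). RLTR13D4 lost its 2i call in 6 fits, without serum shSetdb1 replicate 1, serum shScr replicate 3, 2i shSetdb1 replicate 1 or 2, or 2i shScr replicate 1 or 2 (limma adjusted p 0.0516 to 0.188). It also lost the call with no filter, with TMM, without structural RNA, with median centring and in the 2-group fit. RLTR13D5, the family with known trophoblast enhancers, had 468, 305 and 262 normalised reads in shSetdb1 cells in 2i, against 226, 246 and 143 in shScr cells in 2i, which did not overlap and did not pass (log2 change 0.68, SE 0.30, limma adjusted p = 0.178).

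RLTR17, a single LTR family with the second highest level of all, did not pass in either medium. It had 7236, 7588 and 9291 normalised reads in shSetdb1 cells in 2i, against 4923, 5514 and 9227 in shScr cells in 2i. It had 5032, 6496 and 7773 in shSetdb1 cells in serum, against 4857, 4844 and 5597 in shScr cells in serum. In each group the library numbered 3 was the highest, and the groups overlapped. The log2 change was 0.34 in 2i (95% interval -0.21 to 0.90, limma adjusted p = 0.503) and 0.31 in serum (95% interval -0.24 to 0.87, limma adjusted p = 0.924), so a rise of the size seen for RLTR9D in either medium lies outside these intervals. The sign in 2i turned when libraries were centred on their median (-0.01) or scaled without structural RNA (-0.21).

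None of the 8 RLTR20 families passed in either medium, with log2 changes of 0.11 to 0.78 in 2i (median 0.44) and -0.30 to 0.32 in serum (median 0.14). At an unadjusted limma p under 0.05 there were 3 in 2i and 0 in serum, and the 2i median turned to -0.095 when libraries were scaled without structural RNA. With the gene table's size factors the 2i median was 0.94 and 4 of the 8 passed there, RLTR20A, RLTR20A2, RLTR20B3 and RLTR20D, and RLTR20A also passed with no filter on low values. RLTR20B1 had 1092, 508 and 248 normalised reads in shSetdb1 cells in 2i, against 459, 469 and 317 in shScr cells in 2i (log2 change 0.33, 95% interval -0.53 to 1.19, limma adjusted p = 0.715). It had 829, 913 and 470 in shSetdb1 cells in serum, against 896, 572 and 655 in shScr cells in serum (0.03, 95% interval -0.83 to 0.88, limma adjusted p = 0.991). The shSetdb1 libraries in 2i lay on both sides of the shScr libraries. RLTR20B3 had 743, 584 and 397 normalised reads in shSetdb1 cells in 2i, against 322, 385 and 380 in shScr cells in 2i (log2 change 0.59, SE 0.28, limma adjusted p = 0.214). Its serum values were 713, 1047 and 615 in shSetdb1 cells and 692, 490 and 763 in shScr cells (0.27, SE 0.28, limma adjusted p = 0.924). RLTR20A came closest to the threshold, with a log2 change of 0.73 in 2i (95% interval 0.23 to 1.24, limma adjusted p = 0.0589).

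Outside these groups, RLTR27 had the largest change of any member in serum. It had 919, 769 and 821 normalised reads in shSetdb1 cells in serum, against 152, 128 and 222 in shScr cells in serum, a 5.0-fold rise (log2 change 2.21, SE 0.40, limma adjusted p = 0.00238). In 2i it had 510, 609 and 850 in shSetdb1 cells, against 77.1, 219 and 386 in shScr cells (2.89-fold, 1.64, SE 0.40, limma adjusted p = 0.0118). The groups did not overlap in either medium, but the 2i controls spread widely. Without 2i shScr replicate 3, the highest of them, the 2i rise was 4.43-fold, and without 2i shScr replicate 1 the call was lost (log2 change 1.08, limma adjusted p = 0.0624). It was also lost with no filter, with TMM, without structural RNA and with median centring (limma adjusted p up to 0.122).

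All 3 RLTR1 families rose in 2i and 1 in serum. RLTR1 itself had 397, 206 and 347 normalised reads in shSetdb1 cells in 2i, against 75.3, 122 and 109 in shScr cells in 2i (3.11-fold, log2 change 1.43, SE 0.31, limma adjusted p = 0.006). It had 275, 412 and 218 in shSetdb1 cells in serum, against 139, 107 and 102 in shScr cells in serum (2.60-fold, 1.20, SE 0.31, limma adjusted p = 0.0461). The serum call was close to the threshold and was lost in 6 of 12 fits that left out a library. These left out serum shSetdb1 replicate 1 or 2, any of the 3 serum shScr replicates, or 2i shScr replicate 2 (limma adjusted p 0.0532 to 0.342). The serum call of RLTR1 was also lost with no filter, without a trend and with the gene table's size factors. RLTR1D had 419, 209 and 184 normalised reads in shSetdb1 cells in 2i, against 74.4, 123 and 46.4 in shScr cells in 2i (3.33-fold, 1.49, SE 0.34, limma adjusted p = 0.0078), a call lost when libraries were scaled without structural RNA (limma adjusted p = 0.0522), and its serum change was 0.79 (SE 0.34, limma adjusted p = 0.428). RLTR1C rose by 2.15-fold in 2i (limma adjusted p = 0.0437), a call that 9 of the 12 fits without 1 library lost: those without serum shSetdb1 replicates 1 or 2, serum shScr replicates 1 or 3, 2i shSetdb1 replicates 1 or 2, or any 2i shScr replicate (limma adjusted p 0.0559 to 0.147). The RLTR1C call was also lost without structural RNA, with median centring and in the 2-group fit.

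Among the 21 tested families of the numbers with fewer members, 5 rose in 2i: RLTR27, RLTR14-int, RLTR5_Mm, RLTR21 and RLTR23. RLTR5_Mm, with few reads, had 228, 108 and 224 normalised reads in shSetdb1 cells in 2i, against 40.8, 48.3 and 27 in shScr cells in 2i (4.83-fold, log2 change 1.77, SE 0.32, limma adjusted p = 0.00128). RLTR21 had 2262, 2543 and 3322 in shSetdb1 cells in 2i, against 805, 1183 and 928 in shScr cells in 2i (2.79-fold, 1.46, SE 0.23, limma adjusted p = 0.000399). Both were separate between groups in serum too without passing, at log2 changes of 0.89 for RLTR5_Mm and 0.58 for RLTR21. RLTR23 rose by 2.10-fold in 2i (limma adjusted p = 0.00376), a call lost with TMM, without structural RNA and with median centring (limma adjusted p up to 0.227). Of the 4 RLTR31 families, RLTR31B_Mm rose by 2.22-fold in 2i (limma adjusted p = 0.0413) and had nearly the same log2 change in serum, 1.05 (SE 0.30, limma adjusted p = 0.0811), without passing there. Its 2i call was lost in 8 fits, without any single library of either 2i group, serum shSetdb1 replicate 1 or serum shScr replicate 1 (limma adjusted p 0.0526 to 0.148). It was also lost with no filter, with TMM, without structural RNA, with median centring, in the 2-group fit and without all libraries numbered 3.

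Of the 3 internal parts, which hold the retroviral coding regions, RLTR14-int rose in 2i and the others passed in neither medium. RLTR14-int had 1315, 1383 and 1232 normalised reads in shSetdb1 cells in 2i, against 405, 582 and 475 in shScr cells in 2i (2.69-fold, log2 change 1.40, SE 0.22, limma adjusted p = 0.000399). In serum it had 1368, 1585 and 1148 in shSetdb1 cells, against 1125, 959 and 1315 in shScr cells, which overlapped (0.27, SE 0.22, limma adjusted p = 0.924). In the deposited scaling the libraries of the 2i shScr group lay below those of the other 3 groups. The difference between shScr cells in 2i and in serum did not pass with TMM or without structural RNA, and its smallest size over the alternatives was -0.51. RLTR14, the LTR of the same number, did not pass in 2i (log2 change 0.41, SE 0.25, limma adjusted p = 0.371) or in serum (-0.20, SE 0.25, limma adjusted p = 0.924). With the gene table's size factors RLTR14 passed in 2i. RLTR19-int had 6632, 4062 and 2192 in shSetdb1 cells in 2i, against 5481, 7146 and 3277 in shScr cells in 2i, the lowest log2 change of the 71 families there at -0.37 (95% interval -1.15 to 0.41, limma adjusted p = 0.624). That value was 0.041 without 2i shSetdb1 replicate 3 and 0.087 with the gene table's size factors. In serum RLTR19-int had 6558, 7061 and 3964 in shSetdb1 cells and 5102, 4761 and 4074 in shScr cells (0.30, limma adjusted p = 0.924). RLTR18-int had log2 changes of 0.31 in 2i and -0.30 in serum, and neither passed.

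Of the 5 families with the highest mean over all libraries, RLTR9E rose in both media and RLTR25A, RLTR17, RLTR19-int and RLTR25B passed in neither. RLTR25A had 6746, 9353 and 6693 normalised reads in shSetdb1 cells in 2i, beside the shScr values given above, a log2 change of 0.06 (95% interval -0.63 to 0.76). Its shSetdb1 libraries in serum had 4020, 5533 and 9837, a log2 change of -0.08 (95% interval -0.77 to 0.62). In each medium the groups overlapped, and in serum the library numbered 3 was the highest of both groups. RLTR25B had 3781, 4059 and 4178 in shSetdb1 cells in 2i, against 2753, 3049 and 3868 in shScr cells in 2i (0.32, limma adjusted p = 0.438). It had 4417, 3317 and 4060 in shSetdb1 cells in serum, against 5819, 4110 and 4656 in shScr cells in serum (-0.30, limma adjusted p = 0.924). None of the RLTR11, RLTR18 and RLTR19 families passed in either medium, with medians of 0.21, 0.31 and -0.01 in 2i and 0.25, -0.17 and 0.15 in serum. With the gene table's size factors 2 of 3 RLTR11, 3 of 3 RLTR18 and 2 of 5 RLTR19 families passed in 2i, and RLTR19 itself also passed with no filter.

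Summed over a group, the reads show how much of the output the changes made up. RLTR9 families together had 14135 ± 2131 normalised reads in shSetdb1 cells in 2i and 4878 ± 373 in shScr cells in 2i (SD, n = 3 each), 2.90-fold. They had 14355 ± 2196 in shSetdb1 cells in serum and 6360 ± 1784 in shScr cells in serum (SD, n = 3 each), 2.26-fold. RLTR13 families had 16756 ± 2260 in shSetdb1 cells in 2i and 6284 ± 691 in shScr cells in 2i (SD, n = 3 each), 2.67-fold. They had 11064 ± 1243 in shSetdb1 cells in serum and 7060 ± 865 in shScr cells in serum (SD, n = 3 each), 1.57-fold. RLTR13 was thus the larger of both sums after knockdown in 2i and RLTR9 the larger in serum. All 72 families together summed to 91509 ± 11264 in shSetdb1 cells in 2i and 58964 ± 4350 in shScr cells in 2i (SD, n = 3 each), and to 90917 ± 6973 in shSetdb1 cells and 71077 ± 3398 in shScr cells in serum (SD, n = 3 each).

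These sums rest on the deposited scaling, so the groups were also expressed as shares of the repeat reads outside structural RNA, which need no size factor. RLTR9 took 0.326, 0.372 and 0.338% in shSetdb1 cells in 2i, against 0.190, 0.192 and 0.153% in shScr cells in 2i. It took 0.298, 0.306 and 0.305% in shSetdb1 cells in serum, against 0.142, 0.184 and 0.0989% in shScr cells in serum. RLTR13 took 0.366, 0.480 and 0.389% in shSetdb1 cells in 2i, against 0.210, 0.233 and 0.242% in shScr cells in 2i. RLTR9 and RLTR13 shares were higher in every shSetdb1 library than in every shScr library of the same medium, in serum too, where RLTR13 took 0.231, 0.226 and 0.246% in shSetdb1 cells and 0.172, 0.147 and 0.151% in shScr cells. RLTR20 shares overlapped, at 0.0832, 0.0790 and 0.0643% in shSetdb1 cells in 2i and 0.0747, 0.0900 and 0.0738% in shScr cells in 2i. The share of all 72 families overlapped in 2i, at 2.02, 2.54 and 2.18% in shSetdb1 cells and 1.99, 2.31 and 2.14% in shScr cells. In serum it was 1.80, 1.84 and 2.17% in shSetdb1 cells and 1.57, 1.55 and 1.61% in shScr cells, without overlap.

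**Figure D3:**
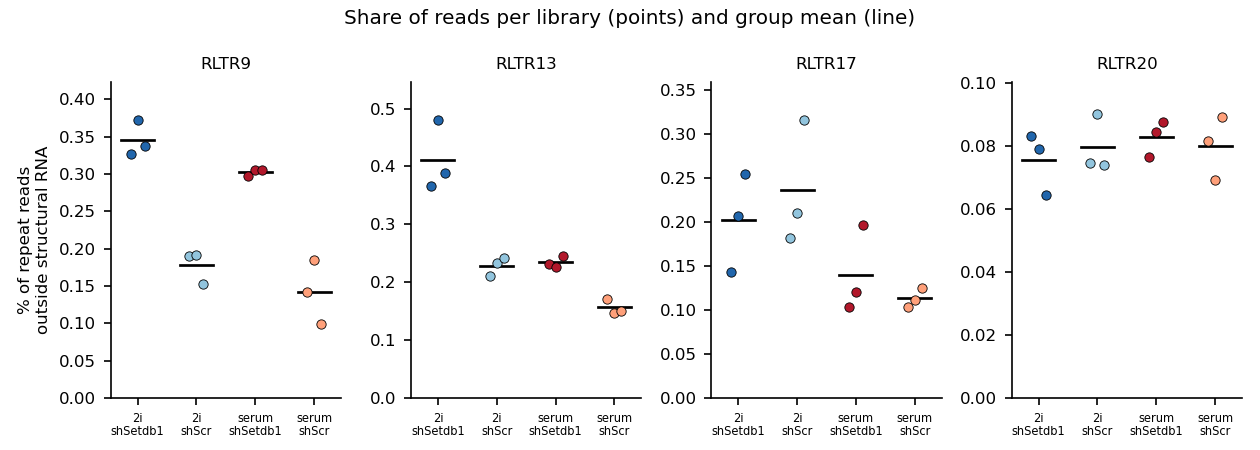
Share of the repeat reads outside structural RNA (y axis, percent, from 0) taken by each name group in each library (points), with the group mean as a line and the 4 groups on the x axis. RLTR9 and RLTR13 shares in shSetdb1 libraries lie above all shScr libraries of the same medium, and RLTR17 and RLTR20 shares overlap.

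The change in serum and the change in 2i, which come from different libraries, had a Pearson correlation of 0.69 and a Spearman correlation of 0.65 over the 71 families. Families are not independent replicates, since related LTRs share sequence and all values share the scaling within a medium. The log2 change was above 0 in both media for 54 families and below 0 in both for 1, RLTR19C. It was above 0 for 67 of the 71 in 2i and 57 in serum, beside 70.5% and 46.3% of all tested families. These signs rest on the deposited scaling. The 2i median of all tested families was 0.24 there and -0.25 with voom without structural RNA.

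**Figure D4:**
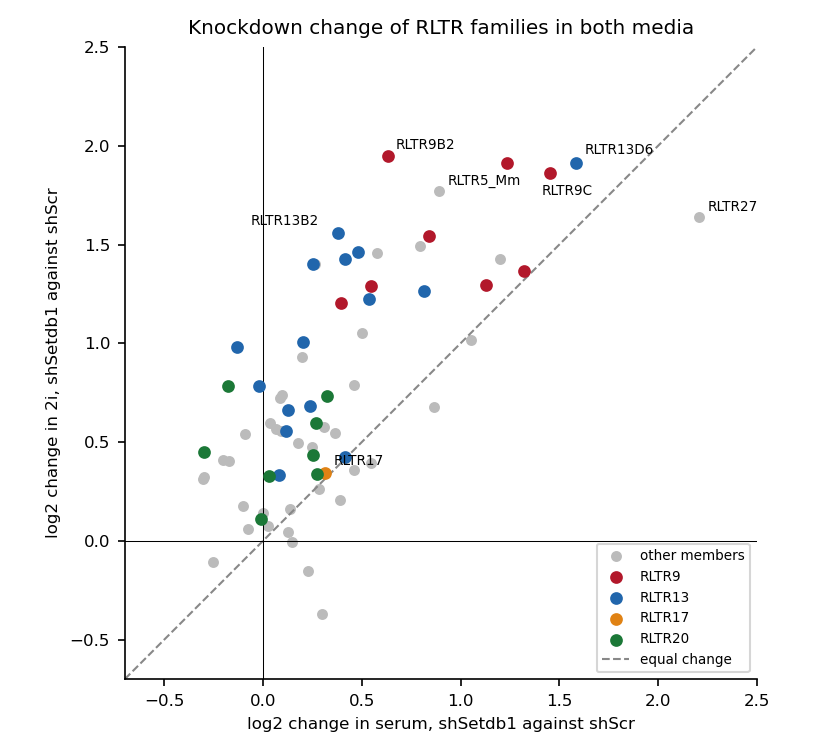
Log2 change of each of the 71 families in serum (x axis) against its log2 change in 2i (y axis), shSetdb1 over shScr cells, coloured by name group, with the dashed line where both are equal. Of the 71 families 60 lie above the line, as do 70.7% of all tested families, with RLTR9 and RLTR13 at up to 1.95 and 1.91 in 2i, RLTR20 at 0.78 at most and RLTR27 below the line at 2.21 in serum.

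Whether the knockdown change differed between the media was tested as 2i minus serum. No family of the 71 passed, and 0.182% of all tested families passed as larger in 2i and 0% as larger in serum. At an unadjusted p under 0.05 there were 10 families, all with the larger change in 2i, beside 8.30% of all tested families larger in 2i and 1.19% larger in serum. Counted the same way, limma with voom weights on the recovered reads also called 0, with 8 at an unadjusted p under 0.05. The median difference was 0.41 over the 71 families and 0.31 over all tested families. RLTR14-int (1.13, SE 0.31, limma adjusted p = 0.423) and RLTR9B2 (1.32, SE 0.39, limma adjusted p = 0.423) had the smallest p. The list of 10 held 6 RLTR13 families, among them RLTR13D1 at 1.15, RLTR13B2 at 1.18 and RLTR13B1 at 0.98, and also RLTR20A2 and RLTR21. For RLTR9E the difference was 0.05 (95% interval -0.77 to 0.86) and for RLTR27 it was -0.57 (95% interval -1.75 to 0.61). Families called in 2i and not in serum are therefore not shown to respond more in 2i.

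Between media, shScr cells in 2i were compared with shScr cells in serum, groups that also serve as controls of the knockdown comparisons. In the deposited scaling 1 family was higher in 2i, where 0.547% of all tested families were higher, and 19 were lower, where 16.6% were lower. The median log2 change was -0.59 over the 71 families and -0.52 over all tested families. With TMM scaling these medians were 0.03 and -0.01, and 2 families were higher and none lower. Leaving out serum shScr replicate 1 removed all 20 calls, and leaving out serum shScr replicate 3, 2i shScr replicate 1 or 2i shScr replicate 3 left 1 each. All 3 shScr libraries in 2i lay below all 3 in serum for 42 of the 71 families, where 39.1% of all tested families did so, and above them for 2, where 2.46% did so.

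**Figure D5:**
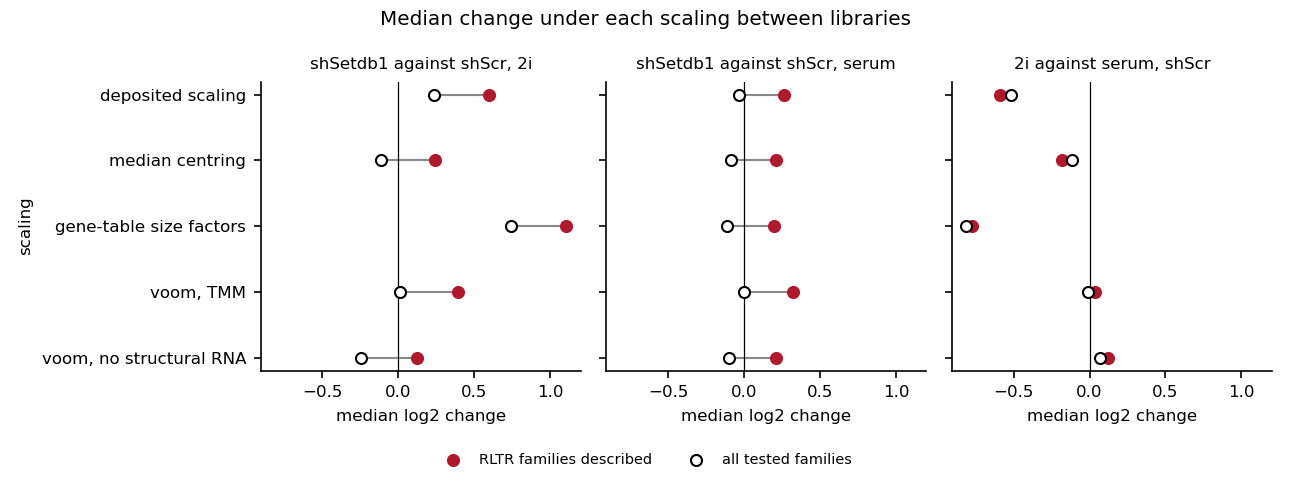
Median log2 change (x axis) of the 71 families (red) and of all 1097 tested families (open) under 5 ways of scaling libraries (y axis), for both knockdown comparisons and for 2i against serum in shScr cells. In the knockdown comparisons the distance between both medians stays between 0.36 and 0.38 in 2i and between 0.30 and 0.32 in serum, while the medians themselves move.

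RLTR13B2 was the one family higher in 2i among shScr cells. It had 931, 667 and 1001 normalised reads in shScr cells in 2i, against 446, 342 and 432 in shScr cells in serum, a 2.13-fold difference (log2 change 1.04, SE 0.29, limma adjusted p = 0.0279). It stayed above 0 in all alternatives and passed under each scaling, but without a trend, without all libraries numbered 3 (an alternative chosen after seeing the data) and in 5 of 12 fits that left out a library the call was lost, those without serum shScr replicates 1, 2 or 3 or 2i shScr replicates 1 or 3. RLTR13D4 lay next to it, with 187, 252 and 301 in shScr cells in 2i, against 183, 86.7 and 143 in shScr cells in serum (0.78, SE 0.29, limma adjusted p = 0.0733), and passed with TMM, with library sizes without structural RNA and with median centring. The 6 largest falls were those of RLTR20A2 (-1.34, limma adjusted p = 0.0164), RLTR1D (-1.20, limma adjusted p = 0.0303), RLTR14-int (-1.18, limma adjusted p = 0.0124), RLTR9A (-1.17, limma adjusted p = 0.0159), RLTR18-int (-1.15, limma adjusted p = 0.0303) and RLTR13B4 (-1.12, limma adjusted p = 0.0343). RLTR20A2, for example, had 160, 123 and 61.5 normalised reads in shScr cells in 2i, against 360, 256 and 311 in shScr cells in serum. RLTR13B4 had 30.9, 66.6 and 47.5 in shScr cells in 2i, against 118, 100 and 165 in shScr cells in serum. Both were below every serum library, and none of the 6 passed with TMM scaling. RLTR17 was at 0.31 (95% interval -0.25 to 0.86), above the median of all tested families by 0.83.

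Set beside the rest of the table, the 71 families stood between the other RLTR families and the remaining repeats. The RLTR families that the naming rule leaves out rose in 18 of 30 cases in 2i, with a median log2 change of 1.53, and in 13 of 30 in serum, with a median of 1.17. Families not named RLTR rose in 71 of 996 cases in 2i (median 0.19) and in 17 of 996 in serum (median -0.06). Without RLTR9 and RLTR13, the remaining 48 families rose in 9 cases in 2i (median 0.46) and in 2 in serum (median 0.21). Relative to the median of all tested families, the RLTR9 median was higher by 1.22 in 2i and 1.01 in serum, the RLTR13 median by 0.77 and 0.28, the RLTR1 median by 1.19 and 0.82 and the RLTR20 median by 0.21 and 0.17, and each of these kept its sign under 5 ways of scaling the libraries. Other groups lay below that median in 1 medium. RLTR11 was at -0.03 relative to it in 2i and 0.28 in serum, RLTR19 at -0.24 and 0.18 and RLTR18 at 0.08 and -0.14. These signs also held under the 5 scalings. RLTR17, RLTR31 and the numbers with fewer members lay above it in both media. No test of these group differences was made.

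Of 31 genes for retroelement silencing (H3K9 methyltransferases, KRAB corepressors, the HUSH and MORC proteins, histone chaperones and enzymes of DNA methylation), Setdb1 was the only one that passed in either knockdown comparison, where 1.21% of 14487 genes rose and 0.0552% fell in 2i, and 0.601% rose and 0.0483% fell in serum. With replicate number as a block, Atf7ip, the nuclear partner of SETDB1, was also higher in 2i and Tet2, a DNA demethylation enzyme, lower in serum. Trim28 had 13214, 7433 and 7912 normalised reads in shSetdb1 cells in 2i, against 14166, 10248 and 7698 in shScr cells in 2i (log2 change -0.17, SE 0.44, limma adjusted p = 0.96). Between media, where 1.73% of genes were higher in 2i and 1.88% lower, Dnmt3a was the 1 gene of this list that passed, and with replicate number as a block 4 were lower, Dnmt3a, Dnmt3l, Tet1 and Tet2. Dnmt3a, a DNA methyltransferase that acts on unmethylated sites, was lower in 2i than in serum in shScr cells, at 293, 281 and 114 against 1335, 1473 and 781 normalised reads (log2 change -2.23, SE 0.46, limma adjusted p = 0.0144). Of 19 transcription factors known from LTR enhancers of stem or trophoblast cells, 16 could be tested and 0 passed in any comparison by limma, with median log2 changes of -0.30 in 2i and -0.71 in serum. At an unadjusted p under 0.05, limma had 2 of them lower in 2i, where 1.95% of all tested genes were lower, and 9 lower in serum, where 1.42% were. It had 2 higher in 2i than in serum among shScr cells, where 8.04% of genes were higher and Tfcp2l1 passed with replicate number as a block. Klf4 had 1293, 1046 and 492 normalised reads in shSetdb1 cells in 2i, against 2201, 2149 and 1525 in shScr cells in 2i (-1.10, SE 0.37, limma adjusted p = 0.31), and Esrrb 3712, 2387 and 1955 against 4094, 5556 and 3249 (-0.69, SE 0.31, limma adjusted p = 0.617).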

How the data were processed

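Ribosomal RNA was removed and strand was kept in library preparation, per the labels' protocols, whose wording ("either", before 1 kit) does not say if 1 extraction kit served all samples. The authors used DESeq2, TopHat2 2.0.9, Trim Galore 0.3.3 and the mm9 build, per the submitters' processing notes. They deposited log2-scale variance-stabilised values for 26061 genes and 1217 repeat families, scaled separately for each table. How multiply mapped reads and strand were treated, and which repeat annotation served, is not given in the sources used here. Reads could therefore be split among related LTR families, and family values are uncertain to that extent.

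The transformation was inverted, and 100% of values came out whole within 0.01 reads. Normalised reads are these reads over the library's size factor, and folds are ratios of their means. Deposited values were tested with limma 3.58.1 (R 4.3.3; trend, 12 libraries, 4 group means, 8 residual degrees of freedom, two-sided, Benjamini-Hochberg over 1097 families or 14487 genes with a mean at least 0.5 above the table's lowest value). A log2 change on this scale understates changes of families with few reads. Scripts were tested on simulated data.

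Replicate numbers were checked as pairs by correlating deviations from group means. In the gene table same-numbered serum libraries correlated at 0.58, 0.23 and 0.51, in the repeat table at 0.21, 0.04 and 0.24. The serum result is therefore also given with the number as a block. In 2i the gene-table values were 0.46, 0.06 and 0.52 and the repeat-table values 0.40, -0.02 and 0.46. In the gene table, serum libraries of different numbers correlated at -0.49 to 0.01, below each same-numbered serum pair. For the libraries numbered 2, values were near 0 in 2i and in the repeat table. Pairs are therefore not established in 2i. In serum the labels do not state pairs either, so the fit without the block remained the main one. Members and lists were chosen with earlier results of these data known. Named families are the largest rises and falls that passed and the families with most reads, and others named to complete a count were chosen after their values were seen. List symbols missing from the gene table were matched through synonyms in the GRCm38.p6 gene table, which found 3. Alternatives were other filters, scalings, voom on recovered reads, no trend, 2-group fits, replicate blocks and leaving out libraries.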

Additional observations from a re-analysis of the deposited data

How the results depend on the processing

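In the knockdown comparisons, 4 of the 6 serum calls (RLTR9C, RLTR9D, RLTR13D6 and RLTR27) and 13 of the 25 calls in 2i passed in all 12 fits without 1 library and all 11 other settings. Counts of families that passed ranged from 17 to 25 in 2i and from 4 to 7 in serum when 1 library was left out, and were 0 in each such fit for the difference of changes. In 2i the count was 14 with voom when structural RNA was left out of library sizes and 54 with the gene table's size factors, under which the median of all tested families was 0.74. The replicate block within each medium gave 10 in serum. Both blocks left 25 in 2i and 0 for the difference, and the block across media gave 29 between media. Between media, the 20 calls became 2 with voom and TMM, 2 with voom without structural RNA, 4 with median centring, 36 with gene-table size factors, 12 without a trend, 1 without all libraries numbered 3 (chosen after seeing the data) and 0 to 27 without 1 library.

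Signs turned for group medians, which had no test, and for families that had not passed. With voom without structural RNA, medians became -0.095 for RLTR20 in 2i, -0.033 for all members and -0.12 for RLTR20 in the difference, and 0.12 for all members, 0.20 for RLTR13 and 0.0073 for RLTR20 between media. With TMM those for all members and RLTR13 between media were 0.035 and 0.10. RLTR20B1 was -0.016, -0.030 and -0.046 in serum with voom without structural RNA, median centring and gene-table size factors, and -0.12 and -0.022 in 2i with voom without structural RNA and median centring. RLTR25A in 2i was -0.23, -0.50 and -0.29 with TMM, voom without structural RNA and median centring. RLTR17 in 2i was -0.21 and -0.012 and RLTR25B -0.24 and -0.028 with voom without structural RNA and median centring. RLTR19-int in 2i was 0.087 with gene-table size factors. Without 1 library, values ranged from -0.011 to 0.33 for the RLTR20 median, -0.15 to 0.31 for RLTR20B1 and -0.43 to 0.21 for RLTR25A in serum, and from -0.75 to 0.041 for RLTR19-int, -0.19 to 0.83 for RLTR20B1 and -0.096 to 0.18 for RLTR25A in 2i. The cause was not tested.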
